A study of Homo sapiens with 26 samples.

Results

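The integrated stress response genes examined here were ATF4, DDIT3, PPP1R15A, PPP1R15B, ASNS, TRIB3, DDIT4 and SESN2, 8 of the 12325 transcripts in the codon maps. They were chosen by name, as known genes of this response, with earlier results of these data known. Each gene was represented by 1 transcript, and all 8 had enough reads to pass the filter on low counts in every comparison.

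The cells were Huh7, a human hepatoma line, kept in RPMI medium with serum. At time 0 the medium of every culture, vehicle included, was exchanged for fresh prewarmed medium with PF-06446846, a small molecule that acts on the translating human ribosome, or with DMSO vehicle. Study 1 held 18 ribosome profiling (ribo-seq) libraries, 3 for each of vehicle, 0.3 µM and 1.5 µM compound at 10 min and at 60 min. Study 2 held 4 ribo-seq and 4 mRNA-seq libraries, 2 of each for vehicle and for 1.5 µM, all at 60 min, with both kinds of library made from the same lysates. Cycloheximide, which arrests elongating ribosomes, was added at harvest in every group.

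In the integrated stress response, kinases such as PERK, GCN2, PKR and HRI phosphorylate the initiation factor eIF2, which slows translation of most mRNAs. The mRNA of ATF4, a bZIP transcription factor, carries short upstream reading frames that hold ribosomes away from its coding sequence in unstressed cells and let them reach it when eIF2 is phosphorylated. ATF4 then raises transcription of DDIT3 (the transcription factor CHOP), of PPP1R15A (GADD34, the inducible subunit that brings phosphatase to eIF2) and of further targets, among them genes of amino acid supply.

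Reads on coding sequences (CDS) ranged from 6414227 to 22224137 per library in study 1, from 8888459 to 13736874 in the ribo-seq of study 2 and from 15227654 to 22036358 in its mRNA-seq. Levels are given as CPM, the reads on a transcript relative to all CDS reads of the library after TMM scaling. Of 9 hepatocyte and hepatoma markers, 8 were in the maps, among them AFP at 9297 to 14059 CPM, APOB at 4420 to 7528 CPM and HNF4A at 202 to 265 CPM. ALB was not in the maps, and neither were the 3 blood cell or 2 fibroblast markers. Of the 2 endothelial markers 1 was in the maps, PECAM1 at 11.5 to 28.03 CPM.

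The question put to these genes first was where on them the ribosomes lay. On ATF4 and TRIB3, a pseudokinase induced by ATF4, a large part of all footprints lay in the first codons of the CDS, up to a stop codon of another reading frame. That stop is shown in capitals in the 2 sequences, which begin at the annotated start codon and were read from the plus strand of GRCh38. The ATF4 sequence is codons 1 to 28 of transcript ENST00000396680, chr22:39521446-39521529, within exon 2 of 3. The TRIB3 sequence is codons 1 to 23 of transcript ENST00000217233, chr20:388011-388079, also within exon 2.
ATF4: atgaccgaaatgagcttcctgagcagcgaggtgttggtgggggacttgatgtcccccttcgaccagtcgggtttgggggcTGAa
TRIB3: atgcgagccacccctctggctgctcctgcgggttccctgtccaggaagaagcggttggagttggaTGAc

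In ATF4 the TGA stands at bases 81 to 83 of the CDS, in the frame 2 bases after that of the protein. In TRIB3 it stands at bases 66 to 68, in the same relative frame. Read in that frame, the middle base of the last codon before the stop falls in codon 27 of ATF4 and in codon 22 of TRIB3. Footprints were placed by the P site, the ribosomal site that holds the growing chain, and a ribosome with a stop codon in its A site has the codon before it in the P site.

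On ATF4, codon 27 alone held 2608 of 14447 footprints over the 22 ribo-seq libraries, or 18.1%, which was 63.5 times the mean of its codons. The next codon in height, codon 4, held 533 (3.69%). On TRIB3, codon 22 held 4629 of 19275 footprints, or 24.0%, which was 86.2 times the mean, and the next, codon 213, held 471. The 4 mRNA-seq libraries, made by the same steps from fragmented RNA, had no such peaks: codon 27 of ATF4 held 57 reads (0.154%) and codon 22 of TRIB3 held 48 (0.263%). Among the 10499 transcripts of over 60 codons with at least 500 footprints, the median share of the highest codon was 2.20%, the last 2 codons left out, and ATF4 and TRIB3 stood at the 99.1th and 99.4th percentiles.

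Footprint density was lower past the stop. ATF4 had 7077 footprints in codons 1 to 28, 253 per codon, against 7370 in codons 29 to 352, 22.7 per codon, a ratio of 11.1 where the mRNA-seq ratio was 0.799. TRIB3 had 6116 footprints in codons 1 to 22, 278 per codon, against 13159 in codons 23 to 359, 39.05 per codon, a ratio of 7.12 where the mRNA-seq ratio was 1.07. Codons 1 to 28 thus held 49.0% of the ATF4 footprints, where the median of the 10499 transcripts was 3.14%. Both values pool all libraries and are descriptions. In each library the share of footprints in these codons was above that in mRNA-seq, as the shares by library show further on. Much of it lay on the peaks, since codon 22 held 4629 of the 6116 TRIB3 footprints and codon 27 held 2608 of the 7077 of ATF4. Whether a density step remained without the peak codons was not tested.

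The transcript sequences place these stops beside the upstream frames. The ATF4 transcript has 6 AUG codons before the CDS, and the 2 at 188 and 149 bases before it share a frame that ends 4 bases into the CDS, on the TGA that overlaps the start codon at the left end of the printed sequence. The frame that ends at bases 81 to 83 is open after an earlier stop codon, whose first base lies 106 bases before the CDS, and no AUG lies in it between that stop and the start codon in this transcript. The TRIB3 transcript has AUG codons 365 and 330 bases before the CDS, opening frames of 77 and 14 codons that end before it. The frame that ends at bases 66 to 68 is open in TRIB3 after a stop codon whose first base lies 292 bases before the CDS, again with no AUG between that stop and the start codon. Only CDS reads were in the maps, so footprints on the upstream frames themselves were not analysed here. The remaining frame of TRIB3 also has a stop close by, at bases 74 to 76, with its last codon before the stop at codon 24, which held 90 footprints. The maps count reads per codon, so the frame read by the ribosomes at codon 27 and codon 22 was not measured. From which codon those ribosomes had started was not tested.

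Frames were read only from the mapped transcript of each gene. An upstream AUG in other transcripts, those of ATF4 included, would be missed. Of the 8 mapped transcripts, only that of DDIT3 had an upstream AUG whose frame ran past the first 4 bases of the CDS. That AUG lies 32 bases before the start, and its frame of 73 codons ends at bases 188 to 190, which places the last codon before the stop at codon 62. Codons 42 and 62 held the most footprints on DDIT3, with 35 and 28 of only 548 in all, followed by codon 169, the last sense codon, with 27, and codon 63 with 23. Codon 62 also held 18 mRNA-seq reads, 3.88 times the mean for that assay, but codons 29 and 79 held more mRNA-seq reads, 22 each. DDIT3 lies on the minus strand of chromosome 12 (57516593 to 57520514) and its CDS is overlapped by MARS1 on the other strand. The sources used here do not state whether strand was used in counting, so reads of the 2 genes may not be told apart.

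**Figure D1:**
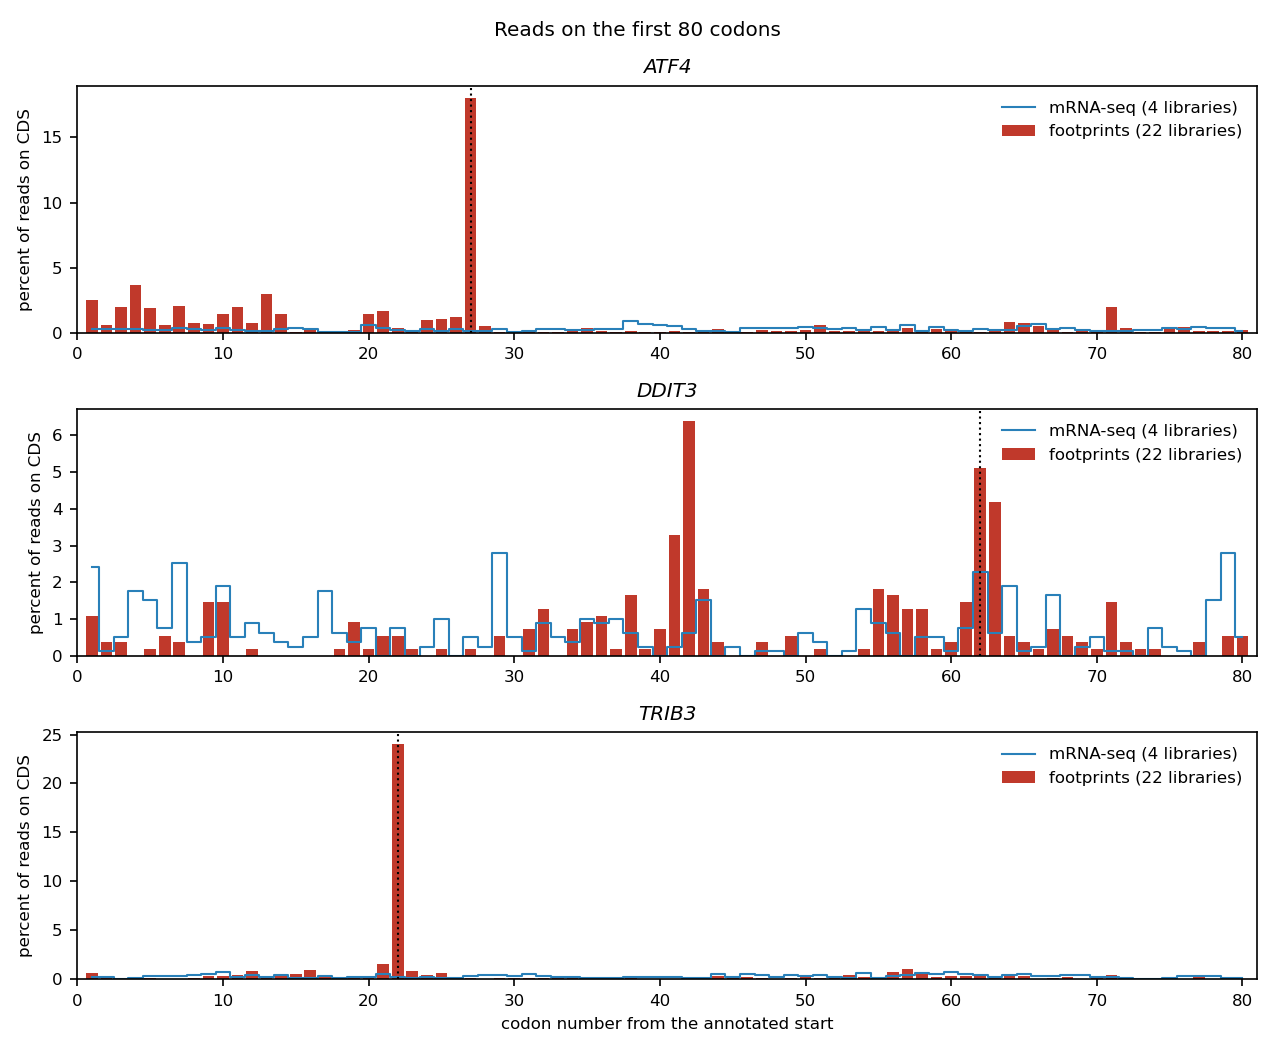
Share of all CDS reads of the gene (percent) at each of the first 80 codons of ATF4, DDIT3 and TRIB3; bars are ribosome footprints summed over 22 libraries and the stepped line is mRNA-seq summed over 4 libraries. The dotted line marks the codon before the out-of-frame stop, where ATF4 and TRIB3 footprints peaked at 18.1% and 24.0% and mRNA-seq reads did not.

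The other genes had their footprints spread over the CDS, and on 4 of them the highest codon was the last sense codon, which precedes the stop of the protein's own frame. SESN2 (Sestrin 2, a leucine-binding inhibitor of mTORC1 signalling) held 772 of 6181 footprints there, at codon 480, or 12.5%. DDIT4 (REDD1, also an inhibitor of mTORC1) held 4.22% at codon 232, ASNS (asparagine synthetase) 2.54% at codon 561, and PPP1R15B (CReP, the constitutive eIF2 phosphatase subunit) 1.95% at codon 713. On PPP1R15A the highest codon was codon 437, with 80 of 3188 footprints, and codon 674, the last, held 46. Upstream AUG codons are present in the transcripts of PPP1R15A, PPP1R15B and SESN2, in frames that end before the CDS, and absent from those of ASNS and DDIT4.

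Because levels of different genes can be compared only per length, CPM per kb of CDS was used to order them. Over the 18 ribo-seq libraries of study 1 the median was 73.8 CPM per kb for ASNS, 65.0 for TRIB3, 46.2 for ATF4, 29.2 for DDIT4, 19.5 for PPP1R15B, 16.8 for SESN2, 5.22 for PPP1R15A and 3.51 for DDIT3. The ranges over libraries of neighbours in that order overlapped in every case but that of SESN2, whose lowest library (12.02) stood above the highest of PPP1R15A (9.004). ASNS lay at the 82.1th percentile of all transcripts and DDIT3 at the 21.4th. DDIT3 had between 6 and 53 reads per library in study 1, the fewest of the 8, so that its counting error is the widest.

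The order differed in the mRNA-seq of study 2. ATF4 mRNA was at the 97.3th percentile of transcripts per kb, TRIB3 at the 93.7th and PPP1R15A at the 83.0th. All were above their footprint percentiles, which were 78.9, 80.3 and 36.5 in study 2 and 74.9, 80.3 and 28.2 in study 1. In the 4 mRNA-seq libraries ATF4 ranged from 476 to 522 CPM, TRIB3 from 231 to 271, PPP1R15A from 137 to 185, ASNS from 75.5 to 84.4, PPP1R15B from 50.9 to 57.9, SESN2 from 31.8 to 37.3, DDIT4 from 10.1 to 15.3 and DDIT3 from 9.14 to 12.4 CPM.

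Footprints per mRNA, the ratio of footprint CPM to mRNA-seq CPM from one lysate, set these genes apart from each other in vehicle-treated cells. The ratio is relative to the average transcript, and across 9230 transcripts (50 reads or more per library) its median was 0.991, with 5% of them below 0.251. ATF4 had 0.122 and 0.136 footprints per mRNA in the 2 lysates, at the 1.13th percentile. PPP1R15A had 0.1001 and 0.139, at the 1.01th percentile. Both genes were therefore among the least translated mRNAs of these cells by this ratio, and their ranges overlapped.

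TRIB3 had 0.286 and 0.277 footprints per mRNA, at the 6.19th percentile. DDIT3 had 0.280 and 0.335, from fewer than 50 footprints per library. SESN2 had 0.803 and 0.492, at the 27.9th percentile, below the median transcript. DDIT4 had 1.11 and 0.756 (47.1th percentile) and PPP1R15B 0.947 and 1.02 (49.7th percentile), both near the median. ASNS had 1.68 and 1.62, at the 75.9th percentile and the highest of the 8. The 4 low genes did not overlap the 4 others in either lysate.

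Leaving out the codons up to the out-of-frame stop lowered the ratio for the 2 genes with early footprints, an alternative added after the values were seen. For ATF4 after codon 28 the vehicle mean went from 0.129 to 0.0732, at the 0.401th percentile, and for TRIB3 after codon 22 from 0.281 to 0.218, at the 3.54th percentile.

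**Figure D2:**
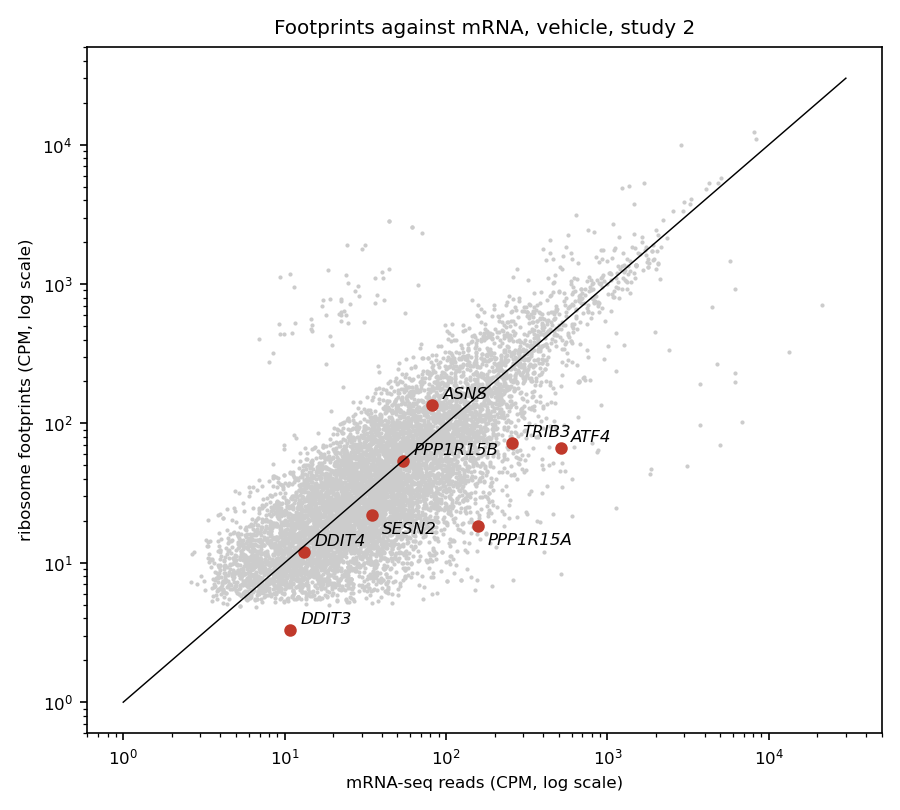
Ribosome footprints against mRNA-seq reads in vehicle-treated cells of study 2, both as the mean CPM of 2 libraries on log scales, with grey dots for the same 9230 transcripts, red dots for the 8 genes and a line where both are equal. ATF4, PPP1R15A, TRIB3 and DDIT3 lie below the line, at mean ratios of 0.129, 0.120, 0.281 and 0.308, and ASNS lies above it at 1.65.

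The comparison of 1.5 µM PF-06446846 with vehicle asks which footprints the compound altered. In study 1 at 10 min, 0 of the 8 genes passed an FDR of 0.1 in edgeR's quasi-likelihood test, against 0.851% of all transcripts tested (94 of 11045). 3 of the 8, ATF4, TRIB3 and DDIT4, had an unadjusted p under 0.05, as did 1953 of the 11045 transcripts, and 0 passed by DESeq2.

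ATF4 footprints at 10 min were 54.2, 66.4 and 52.7 CPM in vehicle and 40.5, 51.2 and 48.4 CPM at 1.5 µM. The groups did not overlap, and the log2 fold change was -0.31 (SE 0.13, 95% interval -0.59 to -0.03, edgeR adjusted p = 0.247). The ATF4 footprints after codon 28 did overlap, at 26.9, 30.2 and 25.02 CPM in vehicle and 20.4, 26.9 and 21.4 CPM at 1.5 µM, and on the codons after 50 the log2 fold change was -0.23 (edgeR adjusted p = 0.409). TRIB3 footprints were 66.3, 74.9 and 69.3 CPM in vehicle and 93.2, 100.1 and 67.8 CPM at 1.5 µM. One treated library lay within the vehicle range, and the log2 fold change was 0.31 (SE 0.14, 95% interval 0.01 to 0.61, edgeR adjusted p = 0.271).

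DDIT4 footprints at 10 min were 21.5, 27.2 and 19.6 CPM in vehicle and 35.7, 35.9 and 22.1 CPM at 1.5 µM. Again the third treated library lay among the vehicle values, and the log2 fold change was 0.44 (SE 0.18, 95% interval 0.04 to 0.84, edgeR adjusted p = 0.245). SESN2 footprints were 20.3, 17.3 and 24.8 CPM in vehicle and 23.5, 27.9 and 25.0 CPM at 1.5 µM, and its log2 fold change was 0.30 (SE 0.15, adjusted p = 0.301). Without vehicle replicate 3 the SESN2 value was 0.43 and passed, with an adjusted p of 0.0813 by edgeR, in a fit that called 14.9% of all transcripts (1656 of 11130), and without each of the 5 other libraries it did not. For PPP1R15B, PPP1R15A, DDIT3 and ASNS the log2 fold changes were -0.19, -0.26, -0.38 and -0.11, and their vehicle and treated libraries overlapped except those of PPP1R15B, which were 46.2, 51.8 and 43.9 CPM against 42.9, 41.8 and 39.7 CPM.

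At 60 min 0 of the 8 genes passed in study 1, against 0.0726% of all transcripts (8 of 11021), and 0 in study 2, against 0.115% (13 of 11263). None of the 8 had an unadjusted p under 0.05 in either study, and DESeq2 called 0. At that p edgeR had 242 transcripts in study 1 and 335 in study 2.

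DDIT3 had the widest difference of the 8 at 60 min, with 0.935, 1.69 and 1.33 CPM in vehicle and 2.34, 2.12 and 1.84 CPM at 1.5 µM in study 1. The log2 fold change was 0.62 (SE 0.34, 95% interval -0.12 to 1.37), with no overlap of groups. In study 2 its vehicle libraries, 3.49 and 3.06 CPM, and its treated libraries, 3.18 and 2.15 CPM, overlapped and the log2 fold change was -0.32. For ATF4 the vehicle libraries of study 1 at 60 min were 70.3, 43.8 and 47.7 CPM and those at 1.5 µM were 48.7, 46.8 and 43.4 CPM. Its log2 fold change was -0.21 with all libraries, 0.02 without vehicle replicate 1, and -0.01 in study 2.

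PPP1R15A had log2 fold changes of -0.37 in study 1 and -0.07 in study 2 at 60 min. Its vehicle libraries of study 1 were 18.2, 10.7 and 11.7 CPM, the first of which was the highest of the 18, and its treated libraries were 9.90, 10.8 and 10.3 CPM. Without that first vehicle library the study 1 value was -0.12. ASNS, TRIB3, DDIT4 and SESN2 had log2 fold changes from -0.15 to 0.13 over both studies, and PPP1R15B had -0.08 and -0.19.

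At 0.3 µM, compared with the same vehicle libraries, 0 of the 8 passed at 10 min (0% of 11131 transcripts) and 0 at 60 min (0% of 11141). None had an unadjusted p under 0.05, 104 and 97 transcripts did, and DESeq2 called 0 at both times. Log2 fold changes of the 8 ranged from -0.15 to 0.30 at 10 min and from -0.19 to 0.22 at 60 min. In the mRNA-seq of study 2, 0 of the 8 passed by edgeR or DESeq2 (0% of 11812 transcripts by edgeR; 228 of them and 0 of the 8 with an unadjusted p under 0.05), with log2 fold changes from -0.28 for DDIT4 to 0.18 for PPP1R15A.

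The change in footprints relative to mRNA was tested in 1 model of both assays of study 2. By edgeR or DESeq2 0 of the 8 passed, against 0.0339% of all transcripts (4 of 11799 by edgeR), and 0 had an unadjusted p under 0.05 where 357 transcripts did. The interaction, on the log2 scale, was 0.05 for ATF4, -0.25 for PPP1R15A, 0.17 for TRIB3 and -0.32 for DDIT3. Mean footprints per mRNA at 1.5 µM were 0.133, 0.0987, 0.316 and 0.247 for the same genes, beside 0.129, 0.120, 0.281 and 0.308 in vehicle. ASNS stood at 1.71 and 1.65.

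**Figure D3:**
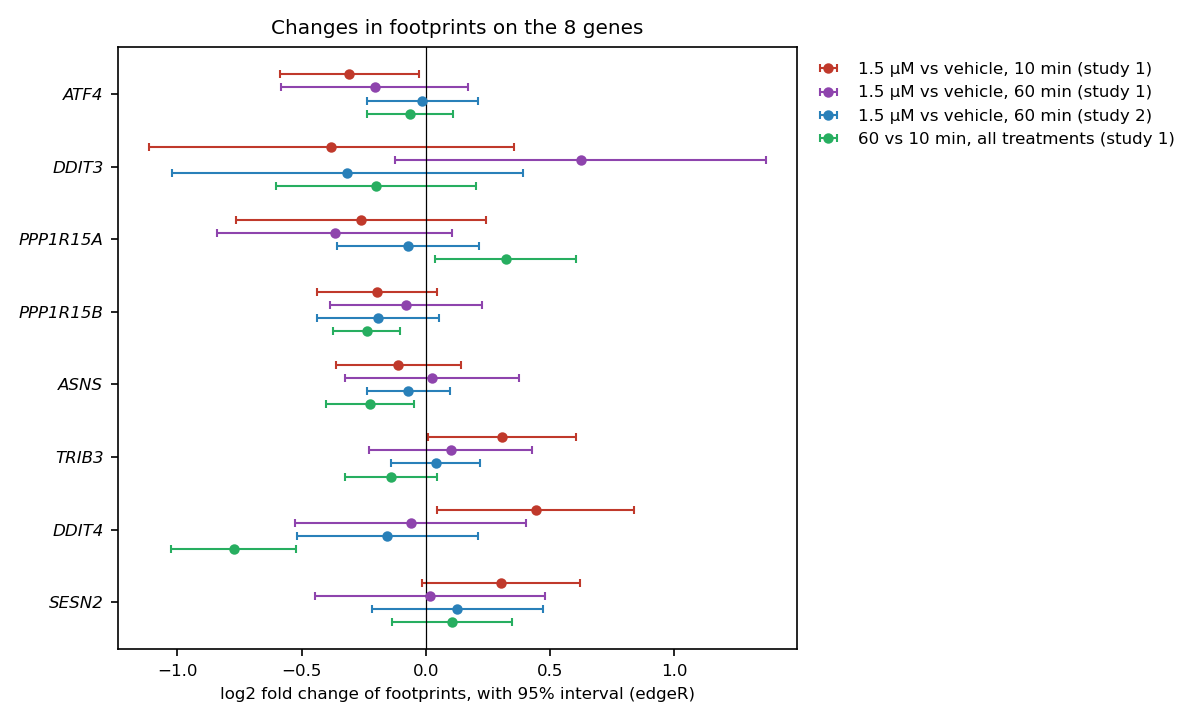
Log2 fold change of ribosome footprints on each of the 8 genes with its 95% interval (edgeR), for 1.5 µM compound against vehicle at 10 min and 60 min in study 1 and at 60 min in study 2, and for 60 min against 10 min over all treatments of study 1. The time comparison of DDIT4, at -0.77, lies farthest from 0 among the intervals that leave 0 out.

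The shares of footprints before the out-of-frame stops were compared between treatments too. Such a share stays the same when all footprints of the gene rise or fall together. It falls when only the footprints past the stop rise. ATF4 had between 40.5% and 55.8% of its footprints in codons 1 to 28 in each of the 18 libraries of study 1 and between 41.2% and 50.8% in those of study 2, while the mRNA-seq libraries had 5.70% to 7.09%. At 10 min the share was 52.5% ± 2.08 in vehicle and 51.0% ± 4.29 at 1.5 µM (SD, n = 3 each; exact permutation test, two-sided, p = 0.7). At 60 min it was 48.0% ± 2.42 and 46.9% ± 2.52 (exact permutation p = 0.7), and in study 2 46.7% ± 2.36 and 46.0% ± 6.85. With 3 libraries against 3 the smallest p that this test can give is 0.1, and with 2 against 2 it is 0.333.

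Codon 27 of ATF4 alone, examined after its values were seen, held 23.3%, 31.5% and 25.1% of the footprints in vehicle at 10 min and 11.8%, 13.8% and 22.3% at 1.5 µM. These groups did not overlap, and the exact permutation p was 0.1, the smallest possible. At 60 min the share was 13.1% ± 1.45 in vehicle and 12.1% ± 3.02 at 1.5 µM (SD, n = 3), and in study 2 it was 19.9% ± 3.21 and 18.0% ± 4.41 (SD, n = 2).

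TRIB3 had between 19.7% and 51.5% of its footprints in codons 1 to 22 across study 1, a wider range than ATF4, and between 24.8% and 30.2% in study 2. Codon 22 alone ranged from 12.9% to 45.7% in study 1 and from 12.01% to 14.8% in study 2. At 60 min the first 50 codons held 43.4% ± 10.7 in vehicle and 28.2% ± 3.65 at 1.5 µM (SD, n = 3), a difference of -15.1 percentage points. The exact permutation p was 0.1, and the lowest adjusted p of the 27 shares tested was 0.9. At 10 min the shares were 36.3% ± 6.12 and 29.2% ± 7.63 (exact permutation p = 0.3), and in study 2 they were 33.3% ± 2.70 and 31.9% ± 2.43. Of the vehicle libraries of study 1 at 60 min, replicate 1 had 37.7 CPM up to codon 22 of TRIB3. Replicates 2 and 3 had 23.3 and 19.6 CPM there. The same replicate 1 was the highest of its group for ATF4 and PPP1R15A, and had the fewest CDS reads of study 1, 6414227.

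At 10 min the share of TRIB3 was lower and its level higher at 1.5 µM than in vehicle, though neither difference passed. The footprints after codon 22 were therefore counted alone. They were 47.1, 46.7 and 49.1 CPM in vehicle and 74.8, 74.2 and 45.3 CPM at 1.5 µM at 10 min. At 60 min they were 35.5, 46.7 and 39.2 CPM in vehicle and 43.5, 66.0 and 54.6 CPM at 1.5 µM, so the groups overlap. Within replicate numbers, which pair the libraries at 60 min, 1.5 µM was higher in 3 of 3 pairs, by 14.3 ± 5.76 CPM (SD; exact paired permutation p = 0.25, the smallest that 3 pairs can give).

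With only the codons after 50 counted for all genes, the log2 fold change of TRIB3 at 10 min was 0.51 and did not pass (SE 0.17, edgeR adjusted p = 0.162). At 60 min it was 0.46 (SE 0.17, 95% interval 0.08 to 0.83), against 0.10 on the whole CDS, and did not pass (edgeR adjusted p = 1.00). With the replicate number as a block in that fit, an alternative added after the values were seen, it was 0.47 and passed (SE 0.10, 95% interval 0.25 to 0.68, edgeR adjusted p = 0.0723). TRIB3 was the 1 of the 8 genes to pass there, against 0.588% of all transcripts (63 of 10709). On the whole CDS the blocked fit gave 0.10 (adjusted p = 0.889), and on the codons after 50 study 2 gave 0.07 (edgeR adjusted p = 0.999).

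**Figure D4:**
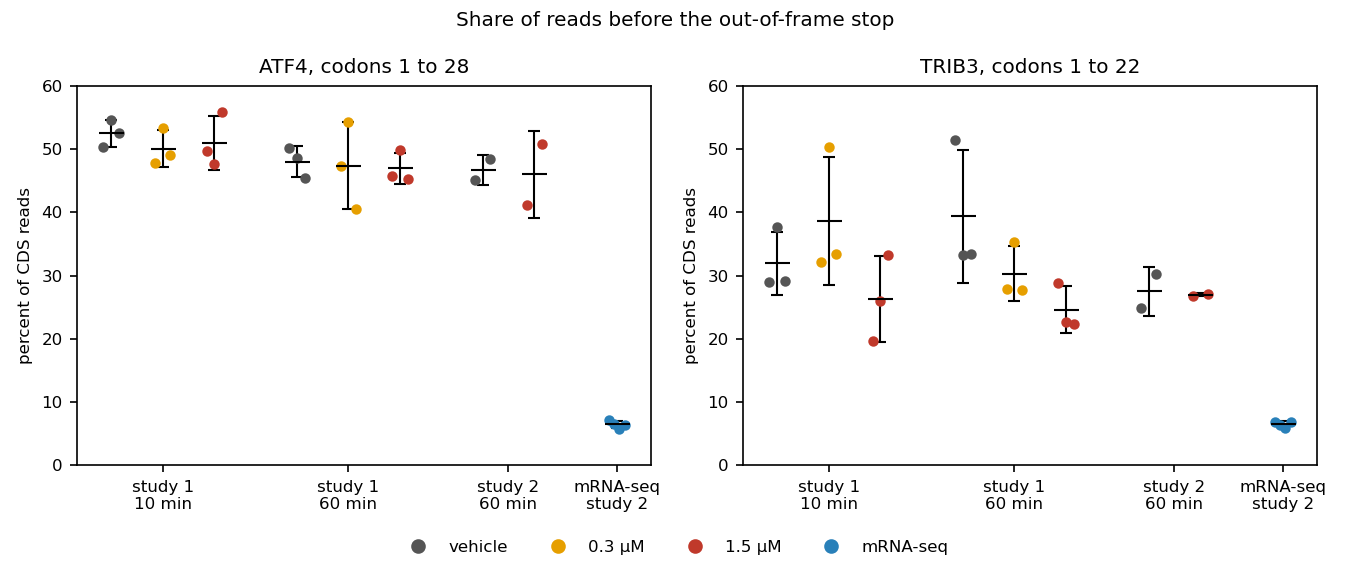
Percent of the gene's own CDS reads that lay in the codons up to the out-of-frame stop, for ATF4 (codons 1 to 28) and TRIB3 (codons 1 to 22). Each library is 1 dot, with a line at the group mean and bars of 1 SD. Footprint libraries of ATF4 sit between 40.5% and 55.8%, those of TRIB3 between 19.7% and 51.5%, and mRNA-seq libraries at 5.70% to 7.09% for ATF4 and 5.92% to 6.90% for TRIB3.

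Whether the compound moved footprints toward the front of any of the 8 coding sequences was measured by the largest excess of the cumulative footprint curve of treated cells over that of vehicle cells, scaled to a Z score among transcripts of like read number. None of the 8 reached a Z of 2 at 10 min, at 60 min or in study 2, where 4.26%, 3.46% and 3.26% of all transcripts did. This measure does not register a gap in the other direction, such as that of the TRIB3 shares. The highest were DDIT3 at 10 min (Z = 1.35), SESN2 at 60 min (Z = 0.963) and DDIT3 in study 2 (Z = 0.956).

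Comparing 60 min with 10 min asks how the same genes moved with time after the change of medium, and here DDIT4 stood apart. DDIT4 footprints at 10 min were 21.5, 27.2 and 19.6 CPM in vehicle, 27.3, 22.4 and 21.96 CPM at 0.3 µM and 35.7, 35.9 and 22.1 CPM at 1.5 µM. At 60 min they were 12.6, 13.3 and 21.2 CPM in vehicle, 12.6, 14.3 and 16.2 CPM at 0.3 µM and 15.1, 13.2 and 16.7 CPM at 1.5 µM. The 2 times overlapped only in replicate 3 of the vehicle, where the value at 60 min was 21.2 CPM and the lowest at 10 min was 19.6 CPM.

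Over all 18 libraries with treatment in the model, a fit added after the values were seen, DDIT4 footprints fell by 0.77 on the log2 scale between 10 and 60 min (SE 0.12, 95% interval -1.02 to -0.52, edgeR adjusted p = 0.00188). PPP1R15B also passed, with a log2 fold change of -0.24 (SE 0.06, edgeR adjusted p = 0.0869). These were 2 of the 8 genes, both lower, against 1.62% of all transcripts (182 of 11258). DDIT4 passed without each of the 18 libraries in turn. PPP1R15B passed only without replicate 2 of 0.3 µM at 10 min, replicate 1 of 1.5 µM at 60 min or replicate 1 of 0.3 µM at 60 min, and its adjusted p by edgeR ranged up to 0.227 without the others.

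The remaining 6 genes had log2 fold changes from -0.22 for ASNS (adjusted p = 0.286) to 0.32 for PPP1R15A (adjusted p = 0.364). ATF4 had -0.06, TRIB3 -0.14, SESN2 0.11 and DDIT3 -0.20. Since every culture was given fresh medium at time 0, the time after that change and the time with compound or vehicle cannot be told apart.

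Within single treatments 0 of the 8 genes passed with time in edgeR, but the direction of DDIT4 was the same in each. In vehicle its log2 fold change was -0.54 (adjusted p = 0.713; 0% of 11098 transcripts were called, and 3 of the 8 genes and 769 transcripts had an unadjusted p under 0.05). At 0.3 µM it was -0.73 (adjusted p = 0.726; 0.00895% of transcripts, 1 of 11177, were called, and 1 of the 8 genes and 353 transcripts had an unadjusted p under 0.05). Same-numbered libraries of the 0.3 µM groups deviated together, and with the replicate number as a block DDIT4 passed there (edgeR adjusted p = 0.0085), as did 0.957% of all transcripts (107 of 11177). At 1.5 µM it was -1.04 (SE 0.19, adjusted p = 0.241 by edgeR and 0.00131 by DESeq2; edgeR called 0.0182% of transcripts, 2 of 10999, and DESeq2 0.108%, 13 of 12020, and 1 of the 8 genes and 499 transcripts had an unadjusted p under 0.05). Without replicate 3 of 1.5 µM at 10 min the value was -1.24 and passed (edgeR adjusted p = 0.0638; 0.0181% of transcripts, 2 of 11077, were called). Whether the change with time differed between 1.5 µM and vehicle was tested by an interaction term, which 0 of the 8 genes passed (0% of 11167 transcripts; 506 of them and 1 of the 8 with an unadjusted p under 0.05). For DDIT4 this term was -0.51 on the log2 scale and for DDIT3 0.99 (adjusted p = 0.856 for both), and the DDIT4 term was -0.22 without replicate 3 of vehicle at 60 min. In study 2, scaled on its own, DDIT4 stood at 12.4 and 11.6 CPM in vehicle and 9.96 and 11.6 CPM at 1.5 µM, all at 60 min.

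**Figure D5:**
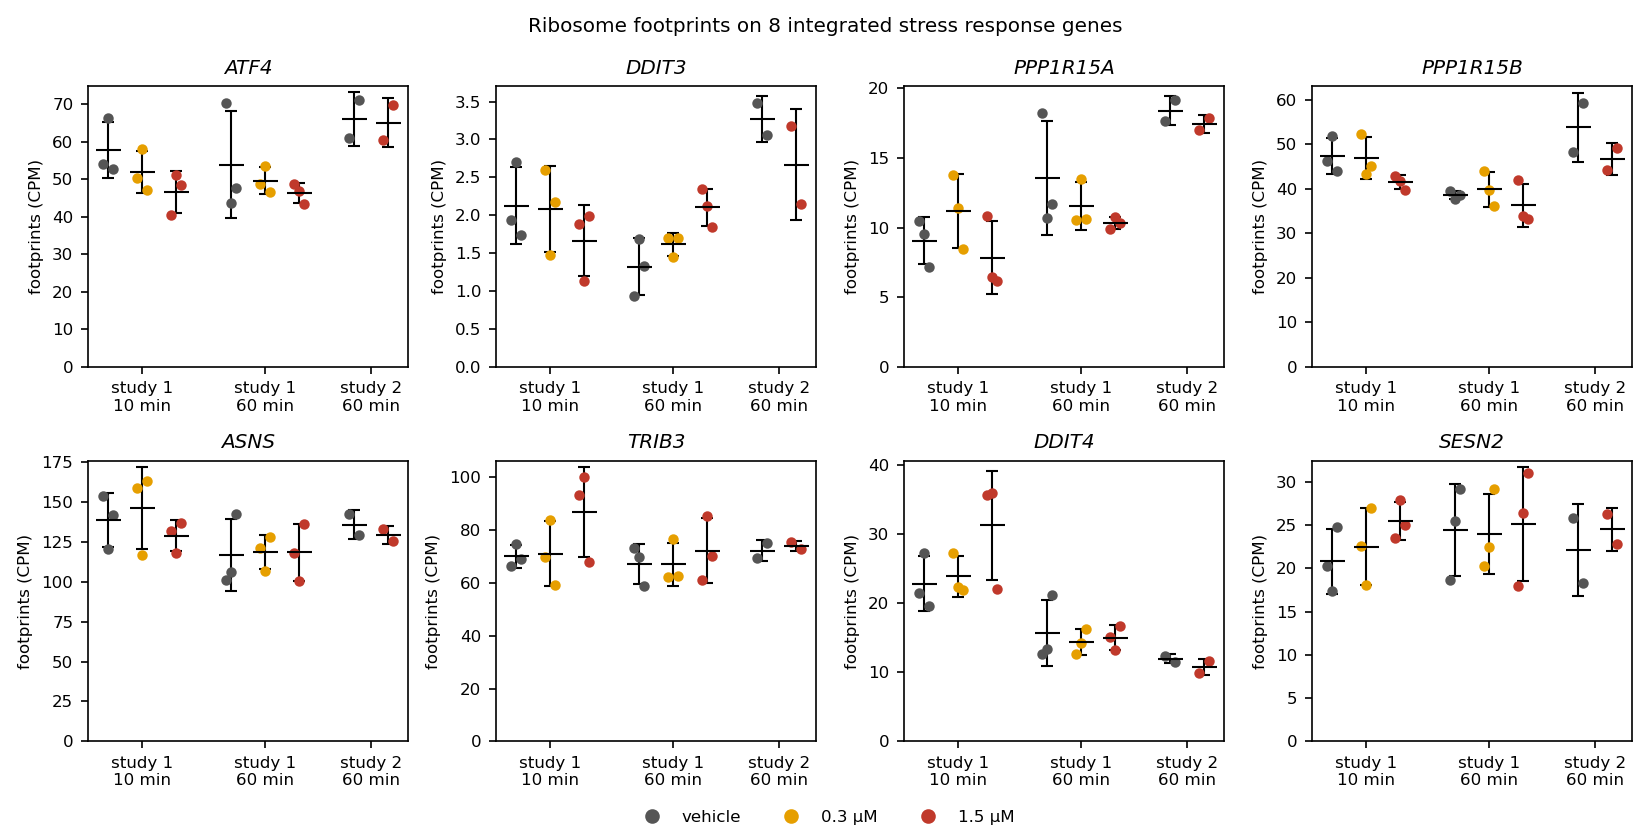
Ribosome footprints (CPM) on the 8 genes in each library, with 1 dot per library coloured by treatment, a line at the group mean and bars of 1 SD, for study 1 at 10 and 60 min (n = 3) and study 2 at 60 min (n = 2). DDIT4 is the gene whose 60-min libraries (12.6 to 21.2 CPM in study 1) lie almost entirely below its 10-min libraries (19.6 to 35.9 CPM).

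The other genes of the pathway were followed as 4 lists. The first held eIF2, its exchange factor eIF2B and the eIF2 kinases, and also EIF2A, EIF5, DNAJC3 and NCK1, with 15 of 16 genes in the maps. At 10 min 1 of the 15 passed for 1.5 µM against vehicle, where 0.851% of all transcripts did, and fell: EIF2AK2, the double-stranded RNA-activated kinase PKR, went from 25.9 ± 1.70 to 17.7 ± 0.943 CPM (SD, n = 3; log2 fold change -0.55, SE 0.13, edgeR adjusted p = 0.0977). That adjusted p lies close to the FDR of 0.1. Alternative fits and fits with 1 library left out are not given here for the genes of the lists. The median of the list was -0.13 on the log2 scale, beside 0.01 over all transcripts tested and -0.15 over the 8 genes. The highest of the list was EIF2B2 at 0.16. At 60 min 0 of the 15 passed, with values from -0.13 for EIF2S3 to 0.22 for DNAJC3, the co-chaperone P58IPK that inhibits eIF2 kinases.

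The list of other mRNAs with regulatory upstream frames had 10 of its 11 genes in the maps, of which 9 were tested for 1.5 µM against vehicle in study 1. None of the 9 passed at 10 or 60 min. At 10 min the median was -0.15, and the extremes among genes averaging at least 50 reads were UCHL5, a proteasome-bound deubiquitinase, at -0.38 (edgeR adjusted p = 0.136) and CEBPB at 0.20, while all 9 ranged from -0.62 to 0.20. At 60 min CEBPG had 0.16 and IBTK had -0.42. Over time in all treatments, where all 10 were tested and 1.62% of all transcripts passed, 1 gene of this list rose, the stress transcription factor ATF3 with a log2 fold change of 1.20 (edgeR adjusted p = 0.000611), and 1 fell, IBTK with -0.35 (adjusted p = 0.0337).

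Of the amino acid and redox targets of ATF4, 20 of 22 genes were in the maps. At 10 min of 1.5 µM, 0 of the 20 passed, 7 had an unadjusted p under 0.05 (17.7% of all transcripts did) and 17 had a positive log2 fold change (50.8% of all transcripts did), with a median of 0.16. The extremes were PYCR1, an enzyme of proline synthesis, at 0.41 (105 ± 21.3 against 140.3 ± 16.1 CPM, SD, n = 3, edgeR adjusted p = 0.184) and the amino acid transporter SLC38A2 at -0.21. At 0.3 µM and 10 min, against the same vehicle libraries, 18 of the 20 were positive (51.5% of all transcripts were), with a median of 0.09, and 0 passed. At 60 min of 1.5 µM 0 of the 20 passed and 11 were positive, with a median of 0.01, SLC7A5 at 0.28 and SLC3A2, its heavy chain partner, at -0.12. In study 2 the median was 0.03 and 0 passed.

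The fourth list, other stress targets of ATF4 and CHOP, had 19 of 22 genes in the maps. At 10 min 1 of the 19 passed, where 0.851% of all transcripts did, and fell: ERO1A, the oxidase that drives disulphide formation in the endoplasmic reticulum, went from 66.1 ± 9.52 to 42.1 ± 3.38 CPM (SD, n = 3; log2 fold change -0.65, SE 0.13, edgeR adjusted p = 0.0547), while the list median was 0.12. Among the genes averaging at least 50 reads GADD45B had the highest value, 0.32, while all 19 ranged from -0.95 to 0.75. None of the 19 passed at 60 min. Among those averaging at least 50 reads GADD45A had the highest value, 0.34, and TNFRSF10B the lowest, -0.08, while all 19 ranged from -1.01 to 0.43.

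With time this last list held the 2 transcripts called at 1.5 µM and the 1 called at 0.3 µM. TXNIP, an arrestin-like protein that binds thioredoxin and restrains glucose uptake, rose by 1.47 on the log2 scale at 1.5 µM (edgeR adjusted p = 0.0103) and by 1.28 at 0.3 µM (adjusted p = 0.0395). GADD45B, a growth arrest protein, rose by 1.49 at 1.5 µM (edgeR adjusted p = 0.0167). Over all treatments TXNIP, GADD45B and GADD45A rose by 1.34, 1.48 and 0.58 (edgeR adjusted p = 3.27e-07, 4.69e-05 and 0.00348), 3 of the 19 tested against 1.62% of all transcripts. Since the list was chosen with earlier results known, its holding these genes is not independent evidence. Whether ATF4 or CHOP acted on these genes here was not tested.

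Across the 18 libraries of study 1 the 8 genes correlated with each other in both directions. Correlations of log2 CPM between pairs of them ranged from -0.67 for ATF4 with SESN2 to 0.53 for PPP1R15B with DDIT4. These are descriptions over libraries that share treatments and replicate numbers, and whether the 8 genes were regulated together was not tested. Among 9690 transcripts averaging 50 reads or more, the 2 most like ATF4 were PTMS (r = 0.926) and ANP32E (0.924), and the 2 most like DDIT4 were ZNF764 (0.894) and KCTD21 (0.867). For TRIB3 they were NDRG1 (0.832) and PKDCC (0.815), and for ASNS SERPINA5 (0.921) and ITPR1 (0.855). SESN2 was most like SLC27A4 (0.944) and MRPS12 (0.938), and PPP1R15B most like ZNF12 (0.922) and PHF3 (0.905). PPP1R15A had UIMC1 (0.780) and ZC3H18 (0.750), and DDIT3, from its few reads, DIS3L2 (0.750) and CA12 (0.739).

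GENCODE names 4 pseudogenes of ATF4 and 4 of ASNS, and the aligner kept reads with up to 5 equally good sites in a transcriptome of coding transcripts. Their part in the values of ATF4 and ASNS was not tested.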

How the data were processed

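Ribo-seq and mRNA-seq reads of Huh7 cells were analysed from codon maps. The authors deposited counts of reads per codon, neither normalised nor pooled. They trimmed adapters (Fast-X toolkit), removed ribosomal RNA reads, aligned with Bowtie 1.1.2 to the most abundant isoform of each gene (chosen with kallisto 0.42.5; Ensembl 78, GRCh38), kept reads with up to 5 best sites and placed them by a P-site offset of 14 nt. DESeq is also named in their processing notes. This placement and the isoform choice set which codon and transcript a read is given to.

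Counts were summed over each CDS. Symbols came from GENCODE 44, which matched 11270 of 12325 transcripts. Sequences and frames came from its transcripts and GRCh38. Comparisons used edgeR 4.0.16 (R 4.3.3) quasi-likelihood tests with filterByExpr, TMM scaling and Benjamini-Hochberg FDR of 0.1 over all transcripts, DESeq2 1.42.0 as the alternative, and exact permutation tests of shares (scipy 1.17.1). A correlation used log2(CPM + 0.5). The scripts were tested on simulated data. Study 1 and study 2 were fitted apart. The methods call the replicates biological, but the labels do not say that they were separate cultures, so p-values may measure technical spread. Named were the 8 genes, list genes past the FDR or at a list's extremes among those with at least 50 reads, and the 2 transcripts most like each gene. The 8 genes and the lists were chosen with earlier results of these data known.

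Same-numbered libraries were checked for shared deviations from group means over 10168 transcripts. They paired, with every r over 0.1, in 0.3 µM against vehicle at 10 min (0.145 to 0.515), 1.5 µM against vehicle at 60 min (0.384 to 0.513), 0.3 µM against vehicle at 60 min (0.428 to 0.539) and 0.3 µM across times (0.346 to 0.419). In the other comparisons of study 1 at least 1 pair fell below. In study 2, where groups of 2 libraries give both pairs the same r, it was 0.253 for ribo-seq and 0.0873 for mRNA-seq. Where the block changed a call in a paired comparison, it is given with the result.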

Additional observations from a re-analysis of the deposited data

Results flagged for a closer look

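DDIT3 footprints differed in direction between comparisons of 1.5 µM with vehicle. In study 1 the log2 fold change was -0.38 at 10 min and 0.62 at 60 min, a difference of 1.00, for which the interaction term of the joint model was 0.99 (edgeR adjusted p = 0.856). Between study 1 and study 2 at 60 min it was 0.62 against -0.32, a difference of -0.94, which was not tested. DDIT3 had 6 to 53 reads per library in study 1. Groups held 2 or 3 libraries, so no library could be examined as an outlier.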

How the results depend on the processing

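Of 596 alternative values of the 40 log2 fold changes of at least 0.2 in size, 594 kept their direction and 2 reversed: ATF4 at 1.5 µM and 60 min was 0.0213 without vehicle replicate 1 (-0.21 with it, and -0.337 to 0.0213 with each library left out in turn), and the change of SESN2 in footprints per mRNA was -0.0041 without ribo-seq vehicle replicate 5 (0.21 with it, and up to 0.502 without replicate 4). The cause was not tested. With 1 library left out, log2 fold changes at 1.5 µM and 10 min that did not pass ranged from 0.19 to 0.46 for TRIB3, -0.55 to -0.12 for PPP1R15A and -0.56 to -0.14 for DDIT3, and those of DDIT3 at 60 min from 0.47 to 0.87 in study 1 and -0.62 to -0.05 in study 2. With the replicate block, 1 of the 8 genes passed instead of 0 for 1.5 µM at 10 min, in a fit that called 1196 of 11045 transcripts. It was DDIT4 (edgeR adjusted p = 0.0415, range over alternatives 0.0415 to 0.359), and the numbers do not pair the samples there. For 0.3 µM across times 1 passed instead of 0, in a fit that called 107 of 11177 transcripts. On codons after 50 with the block, 1 passed instead of 0 for 1.5 µM at 60 min (TRIB3). The block alone changed no call of the 8 genes in the other paired comparisons. Over all treatments it gave 3 called instead of 2, with ASNS added (edgeR adjusted p = 0.0436, 399 transcripts called). With DESeq2, 1 passed across times at 1.5 µM. Over all treatments 1 passed, DDIT4, in place of 2 at an FDR of 0.05, with DESeq2 size factors, with no filter on low counts, on codons after 50 and without the first 40 and last 15 codons. Leaving out 1 library gave 0 to 1 for 1.5 µM at 10 min, 0 to 1 across times at 1.5 µM and 1 to 2 over all treatments. On codons after 50, vehicle footprints per mRNA were 0.0754 for ATF4, 0.218 for TRIB3 and 1.72 for ASNS, and after codons 28 and 22 they were 0.0732 for ATF4 and 0.218 for TRIB3.

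The count of all transcripts called at 10 min of 1.5 µM moved from 94 to 1196 with the block, 519 with DESeq2 and 29 at an FDR of 0.05, and from 9 to 1656 with 1 library left out. It ranged over the alternatives from 8 to 63 at 60 min, 0 to 43 across times in vehicle, 2 to 13 at 1.5 µM and 0 to 107 at 0.3 µM, 140 to 399 over all treatments, 13 to 129 in study 2 ribo-seq, 0 to 1 in its mRNA-seq and 4 to 15 for footprints per mRNA. With 1 library left out it ranged from 0 to 8 at 60 min, 0 to 1 across times in vehicle, 1 to 23 at 1.5 µM and 0 to 1 at 0.3 µM, 101 to 400 over all treatments, 10 to 129 in study 2 ribo-seq, 0 to 2 in its mRNA-seq and 1 to 128 for footprints per mRNA. For the shares of footprints, the TRIB3 difference at 60 min ranged from -18.4 to -8.94 percentage points with 1 library left out, and pairing by number gave an exact p of 0.25. Few DDIT3 reads limit what could be detected for it.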
